A study of Mus musculus with 4 samples.

Results

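Circular RNAs (circRNAs) are closed transcripts in which a downstream splice donor is joined to an upstream acceptor, and the junction reads counted here come from that back-splice. The circRNAs described are those whose ends both lie on exon boundaries of a protein-coding mouse gene for a kinesin heavy chain (Kif), kinesin light chain (Klc), myosin (Myo, Myh), cytoplasmic dynein subunit (Dync) or axonemal dynein heavy chain (Dnah). The rule uses gene symbol and position only, but it was set with earlier results of these data known. Of the 23980 circRNAs in the table, 231 (0.963%) met this rule. They came from 47 host genes. The annotation holds 104 protein-coding genes with matching symbols, and the other 57 had no such circRNA. Among those 57 are Kif5b, Kif11, Dnah5 and Dnah9, and also Kif1bp, a kinesin-binding protein that is itself no motor.

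The tissue was brain of mice whose middle cerebral artery, which feeds much of the cortex and striatum, had been closed for good by a filament (permanent MCAO, a model of stroke). There were 4 libraries, 1 per group. Core frontal and core occipital are infarct core near the frontal and the occipital lobe, and penumbra is the cortex around the core; all 3 were taken 3 h after MCAO, each from the pooled RNA of 6 mice. The sham library came from cortex of sham-operated mice, from positions that match both core and penumbra. Strain, age and genotype, and for sham the number of mice and the time, were not given in the sources used here. Sham is a single library set against core and penumbra alike, so the 3 comparisons with it share their control. Pooling hides the spread between mice, and no group has a replicate. Every test below therefore compares 2 libraries, not 2 conditions, and every interval covers counting error only. In tissue RNA, fewer cells of a type and less RNA per cell cannot be told apart.

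Kinesins, myosins and dyneins turn ATP hydrolysis into movement. Most kinesins carry cargo along microtubules toward the plus end, which in axons points to the synapse, cytoplasmic dynein carries cargo back toward the cell body, and myosins pull on actin filaments, for example in dendritic spines. Axonemal dyneins drive motile cilia, which in brain are found on ependymal cells. In kinesins and myosins the ATP-binding site includes the P-loop (Walker A motif), which lies in the motor domain.

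Junction sequences are shown for the circRNA and the host gene whose differences passed the test, for the most abundant circRNA of each of several motor classes (kinesin-3, myosin IX, myosin V and both cytoplasmic dyneins), and for 2 circRNAs whose counts are compared below with one that shares a splice site. Each is 40 bases of the host's strand, 5′ to 3′, from GENCODE M21 transcripts on GRCm38. The lower-case letters are the last 20 bases of the last exon, and the capitals are the first 20 bases of the first exon, so the back-splice lies where the case changes. Exons are numbered in transcription order.
Kif16b exons 4 to 12 (chr2:142834077-142857427, minus strand): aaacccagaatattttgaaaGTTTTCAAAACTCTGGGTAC
Kif16b exons 3 to 12 (chr2:142834077-142862540, minus strand): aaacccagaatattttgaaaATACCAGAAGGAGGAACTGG
Kif16b exons 16 to 17 (chr2:142739523-142740991, minus strand): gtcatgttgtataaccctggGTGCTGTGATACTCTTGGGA
Myo6 exons 21 to 26 (chr9:80281461-80288216, plus strand): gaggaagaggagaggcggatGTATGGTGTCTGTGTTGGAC
Myo9a exons 7 to 16 (chr9:59801914-59843138, plus strand): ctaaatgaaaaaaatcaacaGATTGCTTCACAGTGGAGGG
Myo9a exons 7 to 43 (chr9:59801914-59923742, plus strand): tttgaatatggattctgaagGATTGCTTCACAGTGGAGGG
Myo5a exons 2 to 4 (chr9:75116186-75123055, plus strand): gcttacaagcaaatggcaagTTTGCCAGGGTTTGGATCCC
Dync2h1 exons 63 to 71 (chr9:7023311-7050483, minus strand): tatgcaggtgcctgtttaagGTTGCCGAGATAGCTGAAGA
Dync1i1 exons 8 to 10 (chr6:5913316-5923290, plus strand): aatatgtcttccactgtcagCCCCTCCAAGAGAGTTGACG
The first pair of Kif16b junctions has the same lower-case letters, because both circRNAs end at the donor of exon 12. The Myo9a junctions have the same capitals, because both begin at the acceptor of exon 7.

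The motor circRNAs were mostly rare. Values are listed throughout for core frontal, core occipital, penumbra and sham, unless named otherwise. The libraries held 121393, 83090, 96349 and 106558 circRNA counts, of which motor circRNAs took 695, 420, 551 and 619. That is 0.573%, 0.505%, 0.572% and 0.581%, so core occipital was the lowest and the other libraries lay close together. Over the 4 libraries the median motor circRNA had 5 counts, as did the median of the whole table. All 4 libraries held 63 motor circRNAs (27.3%, against 30.4% of all circRNAs), 51 were in 3 libraries, 88 in 2 and 29 in 1. Of the 231, 52 (22.5%) had 10 or more counts, against 28.1% of all circRNAs, and 57 had the table's smallest sum of 2. Levels are given in CPM, counts per 1000000 circRNA counts of a library. Taking 3 counts as the limit that a count of 0 allows, this limit was 24.7, 36.1, 31.1 and 28.2 CPM.

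Myosin hosts gave 91 circRNAs from 18 of the 39 annotated myosin genes and 1152 counts (50.4% of the motor counts). Kinesin hosts gave 90 circRNAs from 20 of 43 genes and 670 counts, and dynein hosts 50 from 9 of 22 genes and 463 counts. A single gene, Myo9a, held 28.3% of all motor counts, and the 10 most abundant circRNAs held 37.2%. Myosin hosts had 351, 204, 291 and 306 counts and kinesin hosts 200, 130, 151 and 189. Ratios of summed CPM between libraries stayed near 1. Over all motor hosts the ratio to sham was 0.984 [95% interval 0.876–1.11] in penumbra, 0.986 [0.883–1.10] in core frontal and 0.870 [0.767–0.987] in core occipital. Intervals that left out 1 were those of all motors in core occipital against sham and in core frontal against core occipital (1.13 [1.00–1.28]), and of myosins in penumbra against core occipital (1.23 [1.03–1.48]). With single libraries, such a shift in a sum is a difference between 2 pools. Myo9a alone, with 28.3% of the motor counts, stood at a ratio of 0.730 [0.567–0.935] in core occipital against sham. The summed ratios without Myo9a were not computed, so these shifts need not hold for motor hosts as a set.

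**Figure D1:**
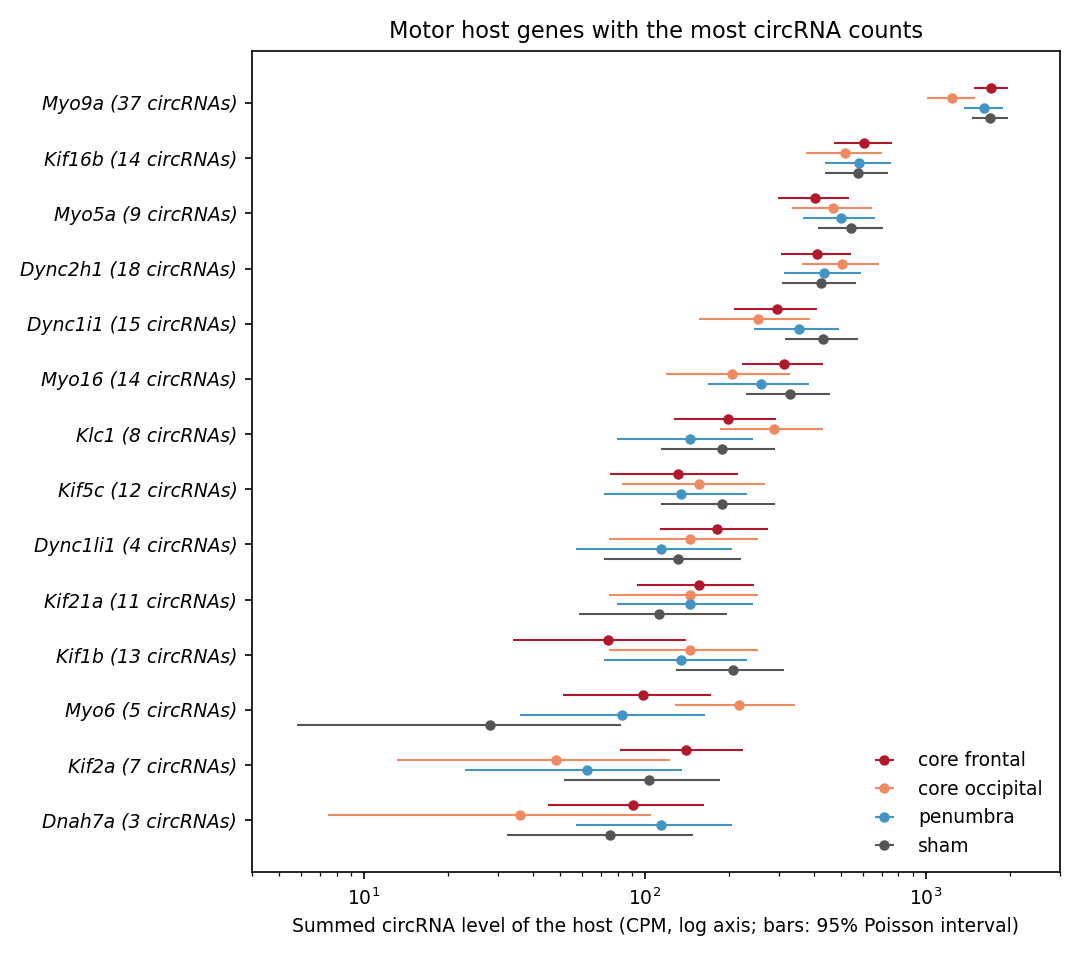
Summed circRNA level (CPM, log axis) of 14 of the 15 motor host genes with the most counts, 1 point per library with its 95% Poisson interval. Myo9a stands above all others in each library, and Myo6 in core occipital (217 CPM) lies above its interval in sham (5.81–82.3).

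Myo9a, a class IX myosin, gave 37 different circRNAs and 208, 103, 155 and 181 counts. Its circRNA of exons 7 to 16 was the most abundant of all motor circRNAs, with 60, 39, 49 and 51 counts, and ranked 247 in the whole table. Its level was 494 CPM [377–636], 469 [334–642], 509 [376–672] and 479 [356–629], so the 4 intervals overlapped throughout. It includes 1223 bases and would correspond to residues 386 to 792 of 2631, within the motor domain region after the P-loop at residue 239. The circRNA of exons 7 to 15 had 18, 12, 12 and 20 counts. Exons 2 to 6, which include the start codon and the P-loop, had 18, 9, 24 and 34 counts, lowest in core occipital and highest in sham. Exons 2 to 3 had 9, 2, 9 and 4 counts and exons 2 to 16 had 10, 4, 5 and 4.

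Myo9a circRNAs shared their ends. The acceptor of exon 7 was used by 13 of them, with 123, 65, 82 and 103 counts, or 57.7% of the host's counts. The acceptor of exon 2 was used by 8, with 25.7% of the counts. The donor of exon 16 was used by 3, with 70, 43, 55 and 56 counts. From the exon 7 acceptor the circRNAs reached donors from exon 8 to exon 43, and the one that ends at exon 43 had 20, 2, 3 and 9 counts. It spans 37 exons and 6280 spliced bases. Among the 5910 circRNAs of protein-coding hosts with 10 or more counts, this was the largest exon number, next to 36 for a circRNA of Lrba, and the longest spliced length. All spliced lengths assume that every annotated exon between the ends is kept, since only the junction was counted.

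**Figure D2:**
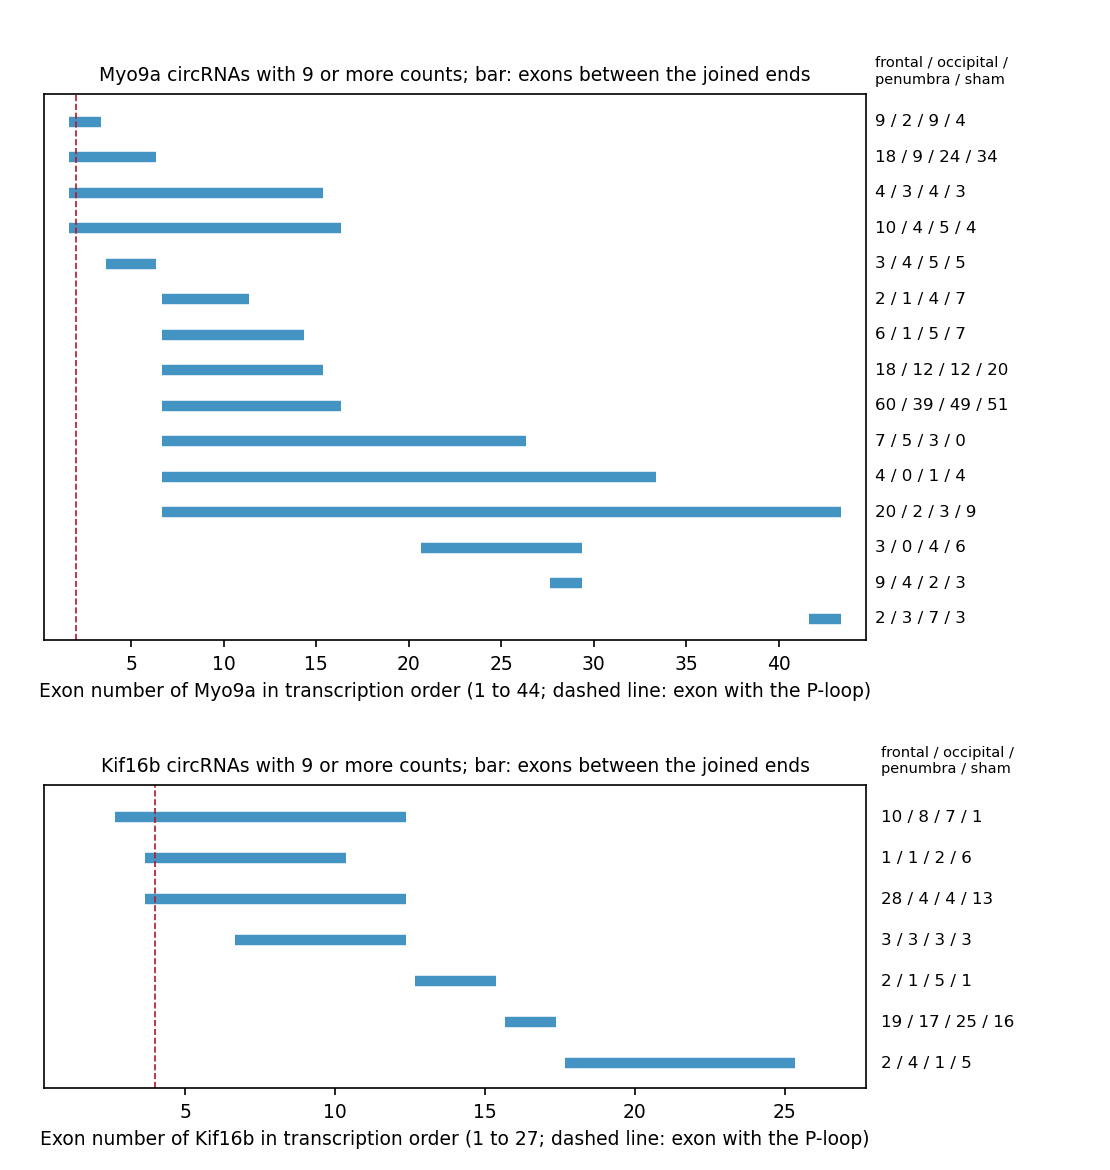
Maps of the Myo9a and Kif16b circRNAs with 9 or more counts, drawn along the exon numbers of each gene; each bar spans the exons between the joined ends, and the counts in core frontal, core occipital, penumbra and sham stand at the right. In Myo9a 7 bars start at exon 7 and 4 at exon 2, and in Kif16b 3 bars end at exon 12 while the exons 4 to 12 bar has 28, 4, 4 and 13 counts.

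Among the other myosins, Myo5a, which moves vesicles and endoplasmic reticulum in neurons, had 9 circRNAs and 49, 39, 48 and 58 counts. Most were of exons 2 to 4, with 40, 34, 37 and 52 counts, and this circRNA ranked 325 in the table. It made up 84.0% of the host's counts over the 4 libraries, and between 77.1% and 89.7% in each. The acceptor of exon 2 served 5 circRNAs that held 89.7% of the host's counts. Myo16, a neuronal myosin with ankyrin repeats, had 14 circRNAs and 38, 17, 25 and 35 counts. Its circRNA of exons 11 to 15, which includes the P-loop, had 20, 7, 12 and 5 counts and was lowest in sham. Myo6, the myosin that moves toward the minus end of actin, had 5 circRNAs and 12, 18, 8 and 3 counts. Its most abundant circRNA, exons 21 to 26, had 6, 13, 4 and 2.

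Among the smaller myosin hosts, exon 2 of Myo18a had 5, 7, 8 and 4 counts as a circRNA of a single exon. In Myh10, the heavy chain of non-muscle myosin IIB, exons 12 to 15 had 2, 0, 4 and 3 counts. Myo3b, a class III myosin, had exons 31 to 32 at 7, 1, 0 and 0 counts. Exons 58 to 59 of Myo15 had 0, 2, 2 and 0 counts, and exons 15 to 18 of Myo10 had 0, 0, 1 and 1. The Myo15 and Myo10 values lie under the limit that a count of 0 allows and show no order of libraries. Myo3b lay above that limit in core frontal only (57.7 CPM) and had too few counts for a test in any pair.

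Of the kinesin heavy chains, Kif16b, a kinesin-3 that binds early endosomes through a PX domain, gave the most counts: 73, 43, 56 and 61 over 14 circRNAs. Exons 16 to 17, a circRNA of 172 bases, had 19, 17, 25 and 16 counts. Exons 4 to 12 had 28, 4, 4 and 13, and exons 3 to 12 had 10, 8, 7 and 1. Kif1b, another kinesin-3, which carries mitochondria and synaptic vesicle precursors, had 13 circRNAs and 9, 12, 13 and 22 counts, highest in sham. Kif5c, a neuronal heavy chain of kinesin-1, had 12 circRNAs and 16, 13, 13 and 20 counts, with exons 5 to 10 at 6, 3, 3 and 5. Kif21a, a kinesin-4, had 11 circRNAs and 19, 12, 14 and 12 counts, with exons 25 to 27 at 2, 5, 0 and 4.

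Kif2a, a kinesin-13 that shortens microtubules rather than walking on them, had 7 circRNAs and 17, 4, 6 and 11 counts. Its exons 6 to 10 had 10, 2, 0 and 4. Kif3c, a kinesin-2, had exons 3 to 6 at 5, 3, 2 and 3 counts. Kif9, a kinesin-9 found in motile cilia, had exons 17 to 20 at 5, 0, 2 and 4. The light chain Klc1, which links kinesin-1 to its cargo, had 8 circRNAs and 24, 24, 14 and 20 counts. Its exons 2 to 3 had 7, 7, 4 and 9 counts, and the exons 6 to 13 circRNA that ends at 12:111789459 had 6, 8, 4 and 3.

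Of the dyneins, Dync2h1, the heavy chain of the dynein that returns cargo within cilia, gave 18 circRNAs and 50, 42, 42 and 45 counts. Its circRNA of exons 63 to 71 had 22, 21, 16 and 24 counts and corresponds to residues 3189 to 3564 of 4306. Of the counts in it and in exons 63 to 78, which share the acceptor, it held 73.3%, 84.0%, 84.2% and 85.7%. Dync1i1, an intermediate chain of cytoplasmic dynein 1 that binds dynactin, gave 15 circRNAs and 36, 21, 34 and 46 counts. Exons 8 to 10 had 15, 9, 14 and 16. The donor of exon 10 served 4 Dync1i1 circRNAs with 62.0% of the host's counts, and the donor of exon 14 served 6 with 23.4%. Dync1li1, a light intermediate chain that binds cargo adaptors, had 4 circRNAs and 22, 12, 11 and 14 counts, with exons 3 to 5 at 7, 10, 7 and 2.

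Axonemal dynein heavy chains were sparse. Dnah7a, Dnah6 and Dnah2 gave 9 circRNAs and 29, 6, 16 and 11 counts, highest in core frontal. Dnah7a exons 17 to 19 had 10, 3, 8 and 7 counts; the near-identical Dnah7b and Dnah7c make its assignment uncertain. Dnah2 exons 13 to 16 had 9, 1, 2 and 0. Of 12 ependymal marker genes, only Cfap54 and Ak7 had any circRNA, with 180, 94, 101 and 120 counts together, nearly all of Cfap54; Foxj1, Hydin and Rsph1 were at 0. Whether the share of ependymal tissue moves with the axonemal dynein counts was not tested.

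**Figure D3:**
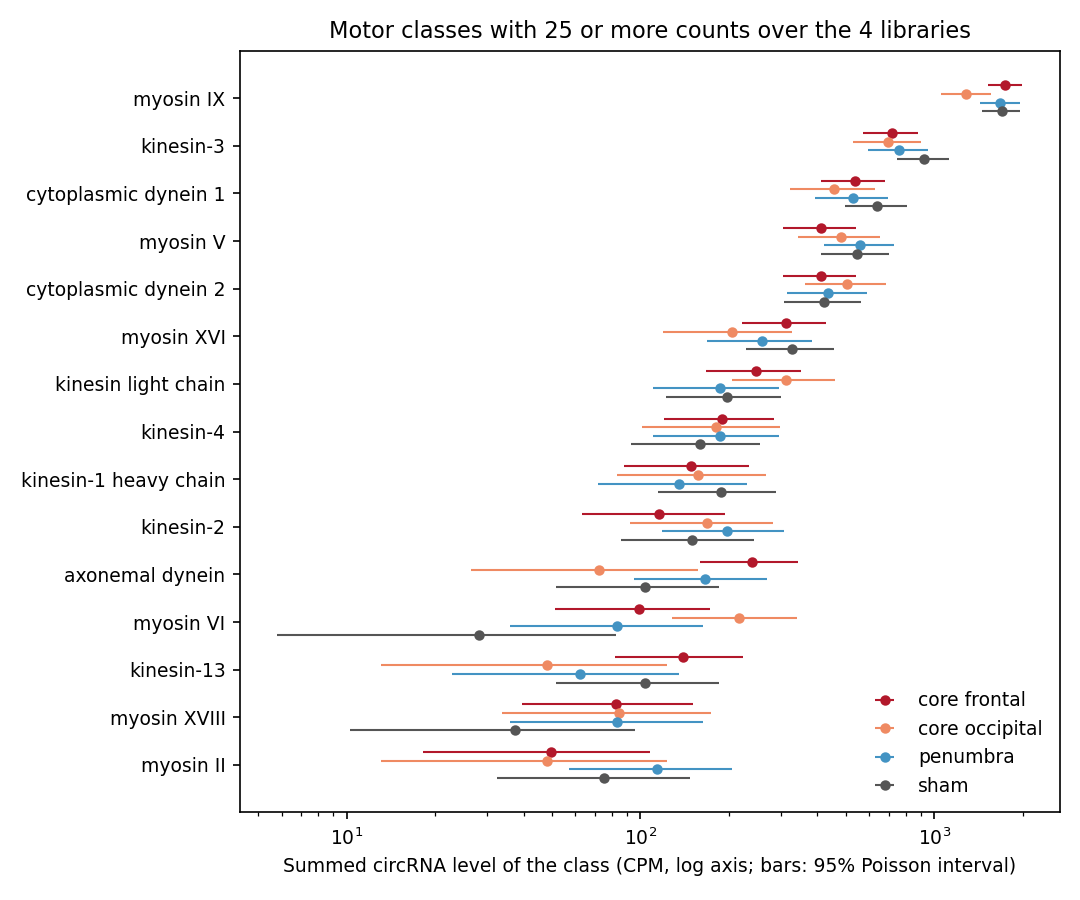
Summed circRNA level (CPM, log axis) of motor classes with 25 or more counts, 1 point per library with its 95% Poisson interval. Axonemal dynein runs from 72.2 CPM in core occipital to 239 in core frontal, and myosin VI, which is Myo6 alone, from 28.2 in sham to 217 in core occipital.

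The motor circRNAs were on the long side. Their median spliced length was 746 bases, against 543 for the 19463 circRNAs of protein-coding hosts with a derived exon structure, and they spanned 5 exons against 4. Of the motor circRNAs 6 (2.60%) were of 1 exon, against 4.09%. Among those with 10 or more counts the order was reversed, with 5.77% of 52 motor circRNAs against 5.11%. Fewer began at exon 2 (16.5% against 23.9%), and these held 22.3% of the motor counts against 37.1%. By family, 25.3% of myosin circRNAs began at exon 2, holding 36.2% of the myosin counts, against 13.3% of kinesin and 6% of dynein circRNAs. Coding sequence alone made up 87.4% of motor circRNAs, against 82.9%, and the length was a multiple of 3 in 32.9%, against 38.1%. The intron before the circRNA had a median of 6214 bases, against 8360, and the one after it 4958, against 6703. No motor circRNA began at exon 1 or ended at the last exon, which was also rare among the 19463, with 21 and 9. These are descriptions of the sets without a test, and circRNAs of 1 gene share exons.

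Many circRNAs shared an end with another of the same host. The 231 circRNAs used 155 acceptors and 165 donors, and 45 acceptors and 43 donors served more than 1 circRNA. Circles on such a shared acceptor were 121 (52.4%), and on a shared donor 109 (47.2%). The matching shares over all circRNAs were not computed, so these values do not set motor hosts apart. A motor host gave 4.91 circRNAs on average, against 4.06 for all protein-coding hosts, and Myo9a alone gave 37 of the 231. The P-loop could be placed in 35 kinesin and myosin hosts with 170 circRNAs. Of these circRNAs 43 (25.3%) include it, 113 lie wholly after it and 14 before it. In kinesins the share of counts in P-loop circRNAs was 37.1%, 25%, 20.3% and 27.4%, highest in core frontal, where Kif16b exons 4 to 12 was highest. In myosins it was 25.9%, 18.8%, 28.4% and 27.1%, lowest in core occipital.

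Each pair of libraries was then compared by a two-sided Fisher's exact test per circRNA and per host gene sum, with Benjamini-Hochberg adjustment over all circRNAs or hosts of the table with 10 or more counts in the 2 libraries. Differences of 2-fold or more in CPM whose adjusted p lay under 0.05 were called. Over the 6 pairs, 1 motor circRNA and 1 motor host sum were called.

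Penumbra against core frontal gave the motor circRNA. Kif16b exons 4 to 12 was lower in penumbra, with 4 counts against 28, or 41.5 CPM [11.3–106] against 231 [153–333]. The ratio was 0.180 [0.0459–0.514], a 5.56-fold lower level, with an adjusted p of 0.0336. It was the only one called of 28 motor circRNAs tested, beside 0.934% of all circRNAs tested in this pair, or 0.404% counting the lower ones. The circRNA holds 1071 bases, corresponds to residues 78 to 434 of 1323 and includes the P-loop at residue 102. The call was lost with no minimum of counts (adjusted p = 0.182), which tests many more circRNAs, and with an edgeR exact test that assumes a coefficient of variation of 0.2 between libraries (adjusted p = 0.541).

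Other Kif16b values in this pair lay nearer to 1 and did not pass. The host sum was 56 counts in penumbra and 73 in core frontal, a ratio of 0.967 [0.670–1.39]. Exons 3 to 12, which has the same donor and differs by exon 3 (114 bases), had 7 and 10 counts, a ratio of 0.882 [0.285–2.57]. Exons 16 to 17 had 25 and 19, a ratio of 1.66 [0.877–3.18]. Of the counts in the exons 4 to 12 and exons 3 to 12 circRNAs together, exons 4 to 12 held 73.7% of 38 (exact 95% interval 56.9–86.6) for core frontal, 33.3% of 12 (9.92–65.1) for core occipital, 36.4% of 11 (10.9–69.2) for penumbra and 92.9% of 14 (66.1–99.8) for sham. By these shares core frontal and sham lay above core occipital and penumbra. Only the sham and core occipital intervals did not overlap. The pair was singled out after its values were seen, and the difference was not tested.

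**Figure D4:**
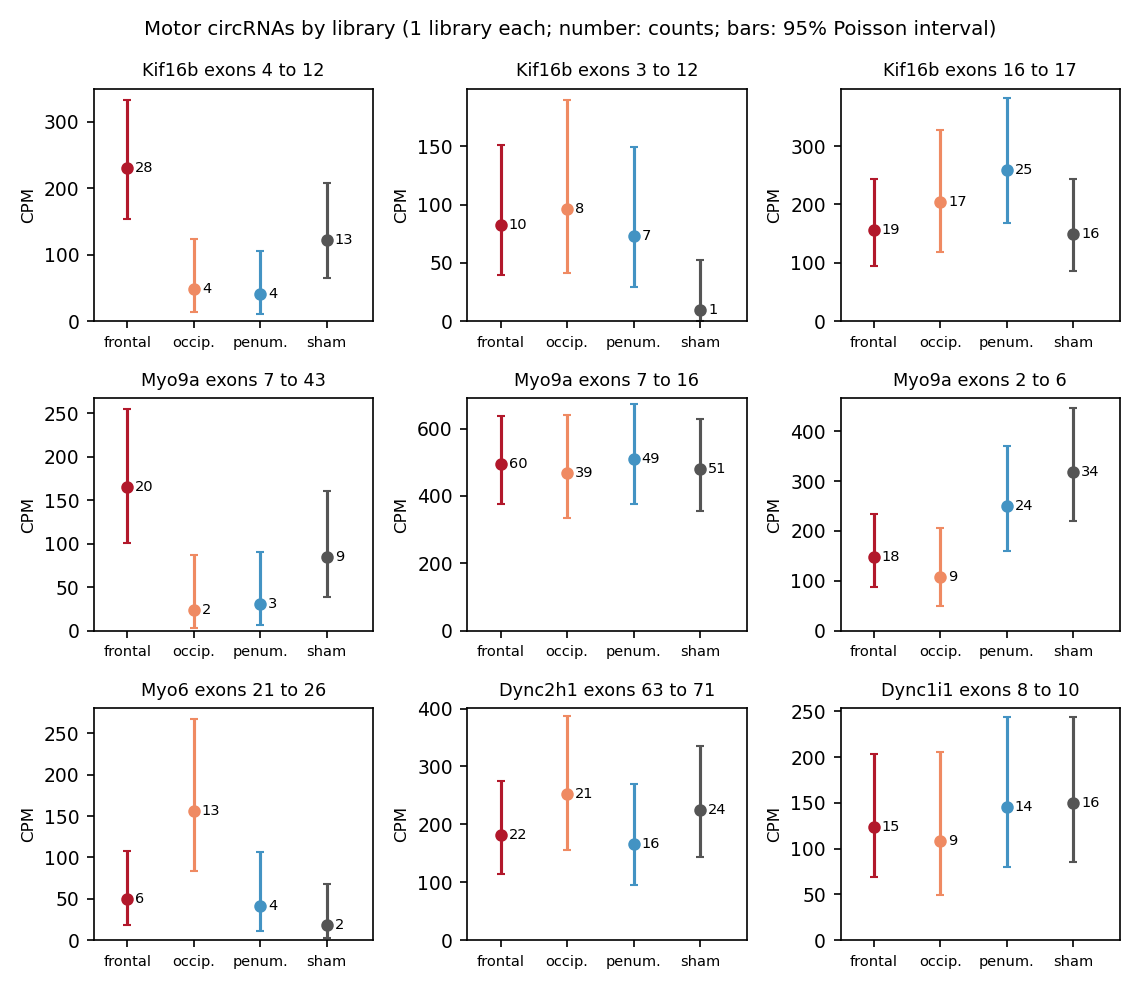
Level (CPM) of 9 motor circRNAs in each library, with the counts beside the points and 95% Poisson intervals as bars. Kif16b exons 4 to 12 and Myo9a exons 7 to 43 are high in core frontal and low in core occipital and penumbra, while Myo9a exons 7 to 16 lies between 469 and 509 CPM in all 4.

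Of the other motor circRNAs in that pair, Myo9a exons 7 to 43 had 3 counts in penumbra and 20 in core frontal, a ratio of 0.189 [0.0360–0.637], and did not pass (adjusted p = 0.0993). Kif2a exons 6 to 10 had 0 and 10 counts and did not pass (adjusted p = 0.108). With 3 counts in place of the 0 its level was 2.65-fold lower in penumbra, a value that leaves out the counting error of the 10. None of 23 motor host sums was called, beside 0.583% of all hosts, and none had an unadjusted p under 0.05, beside 14.0% of all hosts.

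Core frontal against core occipital gave no motor call. Kif16b exons 4 to 12 had 28 and 4 counts, a ratio of 4.79 [1.68–18.8] with an adjusted p of 0.0721. Restricted to circRNAs with 30 or more counts, it was called (adjusted p = 0.0309). Myo9a exons 7 to 43 had 20 and 2 counts, a ratio of 6.84 [1.66–60.4] (adjusted p = 0.109). In the counts of exons 7 to 43 and exons 7 to 16 together, which share the acceptor, exons 7 to 43 held 25% [15.99–35.9], 4.88% [0.596–16.5], 5.77% [1.21–15.9] and 15% [7.10–26.6], highest in core frontal. Myo6 exons 21 to 26 had 6 and 13 counts, a ratio of 0.316 [0.0985–0.891] (adjusted p = 0.293), and Dnah2 exons 13 to 16 had 9 and 1, a ratio of 6.16 [0.854–270] (adjusted p = 0.412). None of 24 motor circRNAs was called, beside 0.344% of all circRNAs, and 3 had an unadjusted p under 0.05, beside 11.8% of all. The edgeR exact test with the assumed variation also called none of them. In penumbra against core frontal that test called only 1 circRNA of the whole table. Its lack of motor calls, here and below, is therefore not read as evidence of no change. Among 19 host sums none was called, beside 0.431% of all hosts, and 3 had an unadjusted p under 0.05, beside 13.5% of all hosts. Myo9a had 208 and 103 counts, a ratio of 1.38 [1.09–1.77] (adjusted p = 0.142). This pair and the one before share the core frontal library.

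Core occipital against sham gave the called host. The Myo6 sum was higher in core occipital, with 18 counts against 3, or 217 CPM [128–342] against 28.2 [5.81–82.3]. The ratio was 7.69 [2.25–40.8], with an adjusted p of 0.0107. Myo6 was the only one of 19 motor hosts tested that was called, beside 1.15% of all hosts tested, or 0.621% counting the higher ones. Its exons 21 to 26, which correspond to residues 693 to 955 of 1294, had 13 and 2 counts, a ratio of 8.34 [1.89–76.1] that did not pass by itself (adjusted p = 0.0664). The other 4 Myo6 circRNAs had 5 and 1 counts together. The edgeR exact test with an assumed coefficient of variation of 0.2 did not call the sum (adjusted p = 0.540), and at a minimum of 30 counts it is not tested.

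In this pair Myo9a exons 2 to 6 had 9 core occipital counts against 34 in sham, 0.339 times the level [0.143–0.723] (adjusted p = 0.128). Dync1li1 exons 3 to 5 had 10 and 2, a ratio of 6.41 [1.37–60.2] (adjusted p = 0.176). The Klc1 circRNA that ends at 12:111789459 had 8 and 3, a ratio of 3.42 [0.821–20.01] (adjusted p = 0.434). None of these passed. None of 19 motor circRNAs was called, beside 0.467% of all circRNAs, and 3 had an unadjusted p under 0.05, beside 12.6% of all. The edgeR exact test called none of them either. The Myo9a sum was 103 and 181 counts, a ratio of 0.730 [0.567–0.935] (adjusted p = 0.193), and the Dync1i1 sum 21 and 46, a ratio of 0.585 [0.332–1.00] (adjusted p = 0.376).

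Core frontal against sham gave no motor call among 23 circRNAs, beside 0.747% of all circRNAs, and none among 20 hosts, beside 0.615% of all hosts. An unadjusted p under 0.05 was reached by 3 of these circRNAs, beside 14.2% of all, and by 2 of these hosts, beside 13.9% of all. The edgeR exact test called none. Myo9a exons 2 to 6 had 18 core frontal counts against 34 in sham, 0.465 times the level [0.247–0.846] (adjusted p = 0.154). Myo16 exons 11 to 15 had 20 and 5, a ratio of 3.51 [1.28–11.97] (adjusted p = 0.155). Kif16b exons 3 to 12 had 10 and 1, a ratio of 8.78 [1.25–381] (adjusted p = 0.192), and exons 4 to 12 had 28 and 13, a ratio of 1.89 [0.948–3.98] (adjusted p = 0.380). The Kif1b sum had 9 and 22 counts, a ratio of 0.359 [0.146–0.811] (adjusted p = 0.179), and the Myo6 sum 12 and 3, a ratio of 3.51 [0.948–19.4] (adjusted p = 0.326). Myo6 was thus higher than sham by its ratio in both core libraries. It was also higher in penumbra, with 8 and 3 counts, a ratio of 2.95 [0.708–17.3] (adjusted p = 0.598). The ratio passed in core occipital only, and all of these ratios share the sham value of 3 counts. The 2 core libraries had 12 and 18 Myo6 counts, a ratio of 0.456 [0.2005–1.00] (adjusted p = 0.327).

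Penumbra against sham, the comparison at the edge of the infarct, gave no motor call. None of 23 circRNAs was called, beside 0.0538% of all circRNAs, and none had an unadjusted p under 0.05, beside 11.3% of all. None of 20 hosts was called, beside 0.0859% of all hosts, and none had an unadjusted p under 0.05, beside 11.3% of all. The edgeR exact test called no motor circRNA or host. The smallest p belonged to Kif16b exons 4 to 12, where 4 penumbra counts against 13 sham counts gave 0.340 [0.0808–1.10] (adjusted p = 0.449). Myo16 exons 11 to 15 had 12 and 5, a ratio of 2.65 [0.870–9.62] (adjusted p = 0.512). Kif16b exons 16 to 17 had 25 and 16, a ratio of 1.73 [0.887–3.46] (adjusted p = 0.515), and Myo9a exons 7 to 43 had 3 and 9, a ratio of 0.369 [0.0642–1.48] (adjusted p = 0.598). Each of these 4 intervals includes 1. For the abundant Myo9a exons 7 to 16 the interval was narrower, 1.06 [0.703–1.60].

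Penumbra against core occipital gave no call among 17 motor circRNAs, beside 0.0606% of all circRNAs, and none among 20 hosts, beside 0.0911% of all hosts. Myo6 exons 21 to 26 had 4 counts in penumbra and 13 in core occipital, a ratio of 0.265 [0.0630–0.859] (adjusted p = 0.522). Myo9a exons 2 to 6 had 24 and 9, a ratio of 2.30 [1.03–5.62] (adjusted p = 0.662). These were the 2 motor circRNAs with an unadjusted p under 0.05, beside 7.03% of all circRNAs. Of the 20 hosts 3 reached it, beside 7.19% of all hosts. The edgeR exact test called none. Myo9a exons 2 to 3 had 9 and 2, a ratio of 3.88 [0.803–36.9] (adjusted p = 0.723), and Dnah7a exons 17 to 19 had 8 and 3, a ratio of 2.30 [0.552–13.5] (adjusted p = 0.886). The Myo6 sum had 8 and 18 counts, a ratio of 0.383 [0.144–0.926] (adjusted p = 0.585).

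The median motor circRNA lay furthest below the median of all circRNAs tested in penumbra against sham and in core occipital against sham. The median log2 ratio of the motor circRNAs tested was -0.35 in penumbra against sham (0.01 over all circRNAs tested), 0.07 in core frontal against sham (0.03) and -0.25 in core occipital against sham (-0.06). It was -0.15 in penumbra against core frontal (-0.05), -0.02 in penumbra against core occipital (0.01) and 0.13 in core frontal against core occipital (0.07). In penumbra against sham 9 of the 23 lay above 1 and 14 below. Circles of 1 host share exons, so these are not 23 separate observations.

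The genes that motors work with were taken from 5 lists, drawn up with earlier results of these data known. Calls within a list are therefore no independent support. Dynein regulators and dynactin had 7 of 21 genes as hosts, led by Ndel1, a dynein regulator (15, 18, 12 and 13 counts), and Nudcd3 (17, 9, 11 and 15), and no circRNA or host was called in any pair. At most 4 of their circRNAs could be tested in a pair. Microtubule track genes had 40 of 54 genes as hosts, led by Agtpbp1, which trims glutamate from tubulin (184, 78, 87 and 133), and Camsap1, which binds microtubule minus ends (107, 79, 110 and 89). None of 41 to 53 of their circRNAs tested per pair was called, which does not set them apart from the shares over all circRNAs.

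Cargo adaptors and motor partners had 24 of 43 genes as hosts, led by Nbea, a large trafficking protein (448, 268, 347 and 317 counts), and Wdr7 (157, 120, 126 and 118). Grip1, which links AMPA receptors to kinesin-1, had exons 17 to 19 at 25 counts against 4 in core frontal against sham, a ratio of 5.49 [1.89–21.7] (adjusted p = 0.0425), the 1 called of 33 tested, beside 0.747% of all circRNAs. Nbea exons 2 to 6 had 13 counts in penumbra and 53 in core frontal, a ratio of 0.309 [0.155–0.575] (adjusted p = 0.0157), the 1 called of 34, beside 0.934% of all circRNAs. None was called in the other 4 pairs, beside 0.0538% to 0.467% of all circRNAs.

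Actin track genes of myosins had 21 of 41 genes as hosts, led by the formins Fmn1 (217, 224, 192 and 156 counts) and Fhod3 (51, 37, 46 and 55). Exon 2 of Fmn1 had 192 core occipital counts against 113 in sham, a ratio of 2.18 [1.72–2.77] (adjusted p = 4.54e-08), the 1 called of 24 tested, beside 0.467% of all circRNAs. The sum of Spire1, an actin nucleator that works with formins and myosin V, had 14 counts in penumbra and 53 in core frontal, a ratio of 0.333 [0.171–0.608] (adjusted p = 0.0148), the 1 called of 15 hosts, beside 0.583% of all hosts. In the remaining pairs no actin track circRNA was called, beside 0.0538% to 0.934% of all circRNAs. No actin track host was called there either, beside 0.0859% to 1.15% of all hosts. Motile cilium genes had 11 of 43 genes as hosts, led by Cfap54 (180, 94, 97 and 120 counts) and Ccdc30 (13, 12, 17 and 18). Cfap54 exons 65 to 66 had 1 count in penumbra and 17 in core frontal, a ratio of 0.0741 [0.00177–0.473] (adjusted p = 0.0490), the 1 called of 6 tested, beside 0.934% of all circRNAs. Cfap54 exons 57 to 66 had 39 counts in core frontal and 5 in core occipital, a ratio of 5.34 [2.10–17.4] (adjusted p = 0.0157), the 1 called of 7 tested, beside 0.344% of all circRNAs. Both calls are of a single gene and end at exon 66. In the remaining pairs no motile cilium circRNA was called, beside 0.0538% to 0.747% of all circRNAs. No motile cilium host was called in any pair, beside 0.0859% to 1.15% of all hosts.

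Cell type markers were read as circRNA sums over lists of 12 to 14 genes, and most defining markers had no circRNA. Excitatory neuron hosts had 1722, 1709, 2003 and 1708 CPM, inhibitory neuron hosts 297, 289, 332 and 328, and striatal hosts 1384, 1167, 955 and 1070, although sham is labelled cortex and Drd1, Drd2 and Adora2a were at 0. Astrocyte hosts had 387, 229, 363 and 188 CPM and oligodendrocyte hosts 231, 253, 249 and 216. No circRNA of 12 microglial genes was found in any library, and the only endothelial one was of Pecam1 with 3 counts in all. Core frontal was highest in the striatal sum, and also in the astrocyte sum and in the ependymal sum (1483, 1131, 1048 and 1126 CPM). Kif16b exons 4 to 12 and Myo9a exons 7 to 43 were highest in core frontal too. In both of these circRNAs sham was second, whereas in the striatal sum core occipital was second. Myo6 was highest in core occipital. The striatal hosts did not move together. Foxp1, with the most counts (75, 42, 53 and 69), was highest in sham when scaled to library totals. By the same scaling Pde10a, Meis2, Adcy5 and Rgs9 were highest in core frontal, and Bcl11b and Rarb in core occipital. The part of tissue make-up in these results was not tested.

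Junctions of motor genes with only 1 end on an exon boundary were left out of the set. There were 15 with 58 counts in 9 hosts, none with enough counts for a test. The largest, in Myo9a at 9:59801911-59843138, lies 3 bases from the acceptor of exon 7 and had 1, 3, 4 and 5 counts. Dnah1 was the only host with such a junction and no circRNA in the set.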

How the data were processed

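RNA was extracted from perfused brain tissue, depleted of ribosomal RNA and sequenced, per the labels' protocols, which name both a TruSeq and a directional NEBNext kit. The authors deposited whole-number read counts per circRNA, without normalization, and an FPKM table. The deposited FPKM values equalled the count divided by genomic span and circRNA total, so only the counts were used. TopHat2 2.0.10, Bowtie and mm9 are named per the submitters' processing notes; the circRNA caller is not given in the sources used here. The coordinates fit GRCm38: 89.1% of starts lay on GENCODE M21 exon boundaries, against 0.192% when moved by 1 base. All coordinates are 1-based on that build. The table has no strand, so the host's strand was used.

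The 4 libraries were grouped by their tissue or treatment labels. Exons follow the annotated transcript with the most exons that holds both ends. CPM values (counts per 1000000 circRNA counts) carry 95% Poisson intervals; ratios carry exact conditional (Clopper-Pearson) intervals. Intervals cover counting error only, as PCR copies of a molecule cannot be told apart without molecular identifiers. All 6 library pairs were tested with Fisher's exact test (SciPy 1.17.1, Python 3.11.15, statsmodels 0.14.6), as defined in the report; scripts were tested on simulated data. TMM (edgeR 4.0.16), DESeq2 1.42.0 size factors, a GC trend, other count minimums, no fold rule and an edgeR exact test with an assumed coefficient of variation of 0.2 were alternatives, in R 4.3.3. The P-loop was found by its Walker A pattern in translated GENCODE coding sequence.

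The members and the gene lists were chosen with earlier results of these data known. Genes were named by a rule: every called circRNA or host, the 20 circRNAs and 12 hosts with most counts, the 4 smallest p per pair with a ratio of at least 1.5, the most abundant circRNA of each class, the 5 hosts with most circRNAs, and of each pathway list the 2 leading hosts and those called. The junction of the leading light chain circRNA, which begins in untranslated sequence, is not shown. One host gene that this rule names, and its class in the plots, is not reported here.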

Additional observations from a re-analysis of the deposited data

How the results depend on the processing

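No paired analysis was possible because each group has 1 library, and for the same reason no library could be left out. The single motor circRNA called in penumbra against core frontal, Kif16b exons 4 to 12, became 0 calls with no count filter (adjusted p = 0.182) and 0 with edgeR's exact test (coefficient of variation between libraries assumed to be 0.2), which called 1 circRNA in all, with 218 at an unadjusted p under 0.05. The single motor host called in core occipital against sham, Myo6, became 0 at a minimum of 30 counts, where it is not tested, and 0 with the edgeR exact test (ratio 7.395, adjusted p = 0.540; 77 hosts at an unadjusted p under 0.05), an alternative for host sums chosen after seeing the data. Core frontal against core occipital rose from 0 calls to 1 at a minimum of 30 counts. The numbers of motor calls under TMM, DESeq2 size factors, the GC trend and no fold rule stayed as reported. All 54 family ratios under alternatives stayed within the reported intervals. Depth limits single circRNAs: 52 of the 231 motor circRNAs had 10 or more counts over the 4 libraries.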
